A study of Mus musculus with 6 samples.

Results

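Prostaglandins, thromboxane and leukotrienes are made from arachidonic acid by a short chain of enzymes, and the 10 genes described here encode the main steps of that chain. They were chosen by gene symbol, with earlier results of these data known. The first is Pla2g4a, which frees arachidonic acid, followed by Ptgs1 and Ptgs2, the cyclooxygenases. Ptges, Ptgds and Tbxas1 are prostanoid synthases, and Alox5, Alox5ap, Lta4h and Ltc4s are the leukotriene genes. All 10 were found among the 17684 genes of the table, and all 10 passed the filter on low counts (at least 10 counts in at least 3 libraries), which 13679 genes passed. Of the 10 genes, 9 had at least 10 counts in every library, and Alox5 had 8 counts in Db replicate 1.

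RNA of whole kidney was sequenced from db/db mice, which carry a defective leptin receptor and become obese and diabetic, to ask how long statin treatment bears on the diabetic kidney. The mice were labelled as strain C57 BLKS/L (the study's text names C57BLKS/J) and 50 weeks old, and each library has a sample record of its own. The Db group (3 libraries) had received normal saline for 40 weeks. The Db + Ato10 group (3 libraries) had received atorvastatin, an inhibitor of cholesterol synthesis, at 10 mg/kg for 40 weeks, given by gavage. A general treatment field of the sample records gives atorvastatin for all 6 mice, and the groups follow the field that separates saline from atorvastatin. The series held no libraries of non-diabetic mice, so each comparison is within diabetic animals. The Db libraries held 13134930, 11381678 and 12426051 counts and the Db + Ato10 libraries 14578023, 14667909 and 13133241, in replicate order. Expression in a library is given as CPM, its counts scaled to library size with TMM normalization, and a gene with 3 counts then lies at 0.198 to 0.26 CPM, a limit that covers counting error only. With 3 libraries against 3, an exact permutation test of a single gene cannot give a two-sided p under 0.1.

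Cytosolic phospholipase A2 cuts arachidonic acid out of membrane lipids. Cyclooxygenases turn it into prostaglandin H, from which separate synthases make prostaglandin E, prostaglandin D, prostacyclin and thromboxane, while 5-lipoxygenase and its activating protein turn it into leukotriene A, the source of leukotriene B and the cysteinyl leukotrienes. In the kidney, prostaglandin E regulates blood flow, renin release and the handling of salt and water along the thick ascending limb and collecting duct, and the leukotriene branch is best known from myeloid leukocytes.

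The libraries raised concerns that bear on every comparison. The 4 Y-linked genes Ddx3y, Uty, Kdm5d and Eif2s3y summed to 2 counts in Db replicate 1 and to between 1419 and 2116 counts in the other 5 libraries, although the study enrolled males only. The first principal component of log2 CPM held 71.1% of the variance, with Db replicates 1 to 3 at -55.4, -26.9 and -52, Db + Ato10 replicate 1 far apart at 107, Db + Ato10 replicate 2 at 46.1, and Db + Ato10 replicate 3 at -18.8, beside the Db libraries. Results of the members are therefore given with all 6 libraries and with each of Db replicate 1, Db + Ato10 replicate 1 and Db + Ato10 replicate 3 left out, and fold changes of other pathway genes at least without Db + Ato10 replicate 1. The tissue label was borne out by kidney markers, which were present in all 6 libraries. Umod of the thick ascending limb was counted at 3264, 4311 and 3577 CPM in Db replicates 1 to 3 and at 3104, 1234 and 3746 CPM in Db + Ato10 replicates 1 to 3. Kap of the proximal tubule ranged from 602 to 2364 CPM, Aqp2 of the collecting duct from 156 to 501 CPM, and Podxl of podocytes from 95.5 to 286 CPM over the 6 libraries.

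Alox5ap, Ptgs2 and Alox5 were the members with the largest differences, and each was far higher in Db + Ato10 replicate 1 than in any other library, while Ptgs1 was slightly lower in all 3 Db + Ato10 libraries. With edgeR's quasi-likelihood test over all genes, 0 of the 10 members were called (Benjamini-Hochberg adjusted p under 0.05 and a fold change over 1.5), and 0.0% of the 13679 tested genes were. At an unadjusted p under 0.05, 3 of 10 members were higher in the Db + Ato10 group, beside 11.2% of all tested genes, and 1 of 10 was lower, beside 5.71%. On the CPM scale every Db + Ato10 library lay above every Db library for 1 member, Alox5ap, beside 12% of all tested genes, and below for 1 member, Ptgs1, beside 11.3%. DESeq2, another count test, called Ptgs2 and Alox5ap higher, 2 of 10 members beside 5.19% of the genes with an adjusted p-value. The members' median log2 fold change was 0.49 and that of all tested genes -0.0063. The members were chosen with earlier results known, so the values of all genes give a scale and no test of the list. The members' numbers rested on single libraries. Without Db + Ato10 replicate 1 the members' median was -0.13 and 1 member, Alox5ap, kept an unadjusted p under 0.05, beside 12.4% of all tested genes. Without Db + Ato10 replicate 3 there were 4 such members (Ptgs2, Alox5, Alox5ap and Ltc4s), beside 29.9% of all tested genes, and edgeR called Alox5ap, 1 of 10 members beside 5.96% of all genes called higher. The members' median was 0.77 in that fit. Without Db replicate 1 there were 0 such members with edgeR, beside 7.68% of all tested genes, and 3 with DESeq2, beside 12%, and the median was 0.40.

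**Figure D1:**
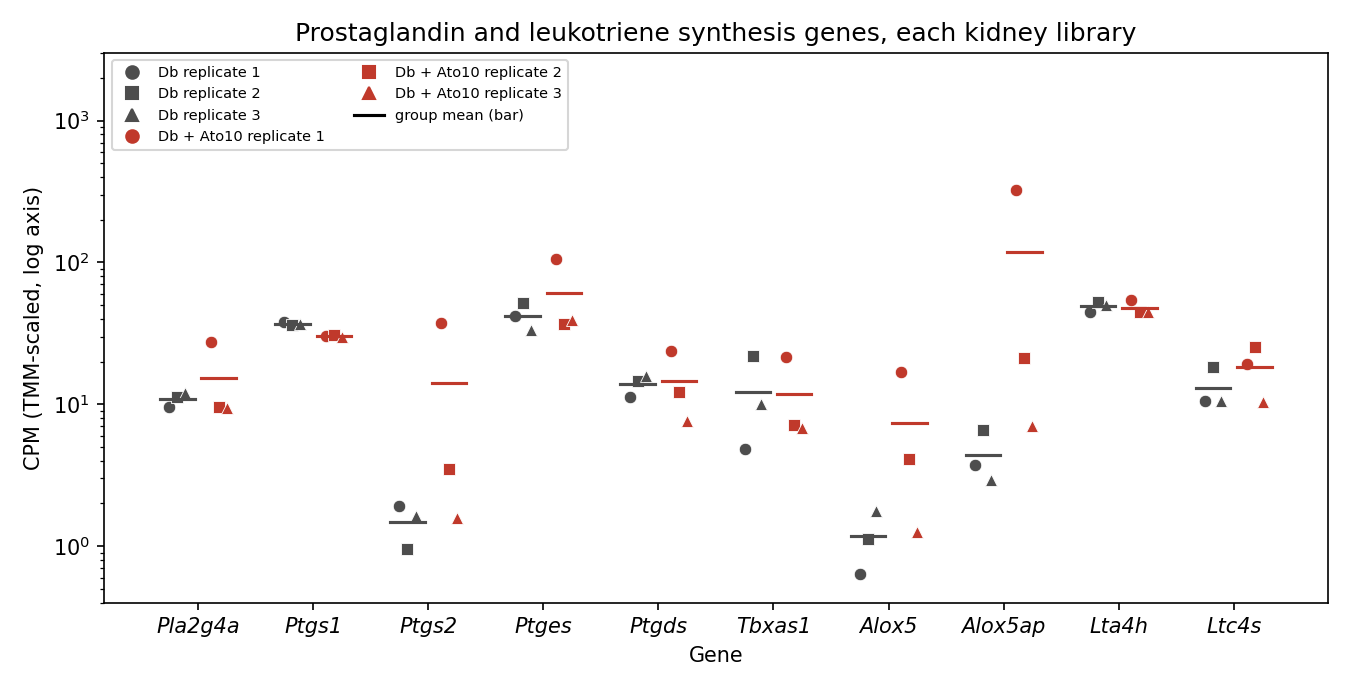
Expression of the 10 genes in each kidney library. The vertical axis gives TMM-scaled CPM on a log scale, grey symbols are the 3 Db libraries, red symbols the 3 Db + Ato10 libraries, symbol shape gives the replicate number and bars are group means. Db + Ato10 replicate 1 is the highest library for 7 of the 10 genes, reaching 324 CPM for Alox5ap.

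On the CPM scale Db + Ato10 replicate 1 was the highest of the 6 libraries for 7 of the 10 members, namely Pla2g4a, Ptgs2, Ptges, Ptgds, Alox5, Alox5ap and Lta4h, and it was also the highest for 30.8% of all tested genes. As TPM (defined below), Lta4h was instead highest in Db replicate 2, at 46.0 against 42.7 in Db + Ato10 replicate 1. Again as CPM, Db + Ato10 replicate 3 was the lowest library for 5 members and for 8.56% of all tested genes. The 10 members together held 166, 233 and 183 TPM (scaled to gene length and to an equal sum in every library) in Db replicates 1 to 3 and 835, 251 and 149 TPM in Db + Ato10 replicates 1 to 3. Alox5ap supplied 67.4% of this sum in Db + Ato10 replicate 1, 16.5% in replicate 2 and 8.63% in replicate 3, and between 3.1% and 5.52% in the Db libraries.

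Pla2g4a (NCBI Gene 18783), the cytosolic phospholipase that opens the chain, was counted at 9.54, 11.2 and 12 CPM in Db replicates 1 to 3 and at 27.3, 9.52 and 9.37 CPM in Db + Ato10 replicates 1 to 3. Only Db + Ato10 replicate 1 stood out, at 2.29 times the next library, and replicates 2 and 3 lay just under the lowest Db library. Its log2 fold change was 0.50 (standard error 0.45, edgeR with Benjamini-Hochberg adjustment, adjusted p = 0.554). It turned to -0.20 without Db + Ato10 replicate 1, and was 0.76 without Db + Ato10 replicate 3 and 0.43 when Db replicate 1 was left out.

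Ptgs1 (NCBI Gene 19224), the constitutive cyclooxygenase, varied little within each group. Its level was 38.1, 36.1 and 36.8 CPM in Db replicates 1 to 3 and 30.4, 30.8 and 29.6 CPM in Db + Ato10 replicates 1 to 3. The groups did not overlap, and Db + Ato10 replicate 1 lay with the other treated libraries. The log2 fold change was -0.29 (standard error 0.11), a fold of 0.817 that was below the fold change required for a call, with an unadjusted p of 0.0392 and an adjusted p of 0.28 from edgeR with Benjamini-Hochberg adjustment. It was -0.29 without Db + Ato10 replicate 1, -0.27 without Db + Ato10 replicate 3 and -0.26 when Db replicate 1 was left out, with unadjusted edgeR p-values of 0.06, 0.0874 and 0.11.

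Ptgs2 (NCBI Gene 19225), the inducible cyclooxygenase, which in kidney is known from the macula densa, the thick ascending limb and medullary interstitial cells, was with Alox5 the least abundant member by TPM. It was counted at 1.91, 0.954 and 1.62 CPM in Db replicates 1 to 3, from 24, 11 and 20 counts. In Db + Ato10 replicates 1 to 3 it reached 37.6, 3.51 and 1.58 CPM, from 571, 52 and 20 counts. Replicates 1 and 2 lay above every Db library and replicate 3 lay among them, so the groups overlapped. The group means were 14.2 ± 20.3 CPM and 1.49 ± 0.489 CPM (SD, n = 3 each). This gave a log2 fold change of 3.24 (standard error 1.21) with an adjusted p of 0.268 from edgeR and of 0.0317 from DESeq2, both after Benjamini-Hochberg adjustment. Without Db + Ato10 replicate 1, at 10.7 times the next library, it was 0.78, and without Db + Ato10 replicate 3 it was 3.78 (edgeR adjusted p = 0.56 and 0.0658 with Benjamini-Hochberg adjustment). The DESeq2 call was lost in 4 of 6 fits with a library left out, at Benjamini-Hochberg adjusted p-values of 0.712 without Db + Ato10 replicate 1 and of 0.152, 0.169 and 0.174 when Db replicates 1 to 3 were left out in turn. The DESeq2 log2 fold change was 3.27 with all libraries and 0.78 without Db + Ato10 replicate 1. It was 3.48, 3.03 and 3.33 when Db replicates 1 to 3 were left out in turn. With edgeR it was 3.48 when Db replicate 1 was left out.

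Ptges (NCBI Gene 64292), the microsomal prostaglandin E synthase that works with the inducible cyclooxygenase, was counted at 42.0, 51.4 and 33.2 CPM in Db replicates 1 to 3 and at 106, 36.6 and 39.5 CPM in Db + Ato10 replicates 1 to 3. As for Pla2g4a, Db + Ato10 replicate 1 alone was high, at 2.07 times the next library, and the other treated libraries fell inside the Db range. An estimate of 0.53 on the log2 scale (standard error 0.44, edgeR with Benjamini-Hochberg adjustment, adjusted p = 0.529) turned to -0.14 without that library, and was 0.77 without Db + Ato10 replicate 3 and 0.54 when Db replicate 1 was left out.

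Ptgds (NCBI Gene 19215), the lipocalin-type prostaglandin D synthase, was counted at 11.3, 14.5 and 15.9 CPM in Db replicates 1 to 3 and at 23.8, 12.3 and 7.64 CPM in Db + Ato10 replicates 1 to 3. The treated libraries spanned the Db libraries on both sides. Overall the log2 fold change was 0.073 (standard error 0.42, edgeR with Benjamini-Hochberg adjustment, adjusted p = 0.933), -0.47 without Db + Ato10 replicate 1, 0.38 without Db + Ato10 replicate 3 and -0.043 when Db replicate 1 was left out.

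Tbxas1 (NCBI Gene 21391), thromboxane synthase, which is abundant in platelets and macrophages, had levels of 4.85, 21.8 and 10.1 CPM in Db replicates 1 to 3 and of 21.4, 7.16 and 6.85 CPM in Db + Ato10 replicates 1 to 3. Here a Db library, replicate 2, was as high as Db + Ato10 replicate 1, and the remaining libraries of both groups overlapped. Its log2 fold change was -0.051 (standard error 0.67, edgeR with Benjamini-Hochberg adjustment, adjusted p = 0.973). It was -0.79 without Db + Ato10 replicate 1, 0.23 without Db + Ato10 replicate 3, -0.42 when Db replicate 1 was left out and 0.66 when Db replicate 2 was left out.

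Alox5ap (NCBI Gene 11690), the membrane protein that hands arachidonic acid to 5-lipoxygenase, differed most. It was counted at 3.73, 6.59 and 2.91 CPM in Db replicates 1 to 3, from 47, 76 and 36 counts. In Db + Ato10 replicates 1 to 3 it was counted at 324, 21.3 and 7.01 CPM, from 4926, 316 and 89 counts. The groups did not overlap on this scale, but Db + Ato10 replicate 3 lay only just above Db replicate 2, both were at 12.9 TPM, and Db + Ato10 replicate 1 was 15.2 times as high as the next library. The log2 fold change was 4.74 (standard error 1.48), with an unadjusted p of 0.0166 and an adjusted p of 0.239 from edgeR and an adjusted p of 0.0178 from DESeq2, both with Benjamini-Hochberg adjustment. It was 1.70 without Db + Ato10 replicate 1, 5.30 without Db + Ato10 replicate 3 and 4.65 when Db replicate 1 was left out, with edgeR p-values of 0.348, 0.0458 and 0.588 after Benjamini-Hochberg adjustment. The DESeq2 call was lost in 3 of 6 fits with a library left out, at Benjamini-Hochberg adjusted p-values of 0.0853 without Db + Ato10 replicate 1 and of 0.0534 and 0.168 when Db replicate 1 or 3 was left out. In these fits the DESeq2 log2 fold change was 1.7, 4.65 and 4.53, against 4.75 with all libraries.

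Alox5 (NCBI Gene 11689), the 5-lipoxygenase itself, was less abundant by TPM and had the same order of treated libraries. Its level was 0.636, 1.13 and 1.78 CPM in Db replicates 1 to 3, from 8, 13 and 22 counts, and 16.9, 4.12 and 1.26 CPM in Db + Ato10 replicates 1 to 3, from 256, 61 and 16 counts. As for Ptgs2, Db + Ato10 replicates 1 and 2 lay above every Db library and replicate 3 lay among them. This gave a log2 fold change of 2.65 (standard error 0.96), with an adjusted p of 0.262 from edgeR and of 0.0508 from DESeq2, both with Benjamini-Hochberg adjustment. It was 1.21 without Db + Ato10 replicate 1, 3.15 without Db + Ato10 replicate 3 and 2.36 when Db replicate 1 was left out.

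Downstream of 5-lipoxygenase the values were closer together. Lta4h (NCBI Gene 16993), the hydrolase that makes leukotriene B, was counted at 44.8, 52.3 and 49.8 CPM in Db replicates 1 to 3 and at 54.2, 44.8 and 44.7 CPM in Db + Ato10 replicates 1 to 3. The groups overlapped, and Db + Ato10 replicate 1 was 1.04 times the next library. The log2 fold change was -0.032 (standard error 0.14, edgeR with Benjamini-Hochberg adjustment, adjusted p = 0.911), -0.12 without Db + Ato10 replicate 1, 0.021 without Db + Ato10 replicate 3 and -0.08 when Db replicate 1 was left out. Ltc4s (NCBI Gene 17001), the synthase that adds glutathione to make the cysteinyl leukotrienes, was counted at 10.6, 18.2 and 10.5 CPM in Db replicates 1 to 3 and at 19.3, 25.3 and 10.3 CPM in Db + Ato10 replicates 1 to 3. Its highest library was Db + Ato10 replicate 2, not replicate 1, and replicate 3 was as low as the lowest Db libraries. Its log2 fold change was 0.49 (standard error 0.38, edgeR with Benjamini-Hochberg adjustment, adjusted p = 0.508), 0.46 without Db + Ato10 replicate 1, 0.77 without Db + Ato10 replicate 3 and 0.37 when Db replicate 1 was left out. It moved most for the replicates numbered 2, to 0.20 without that of Db + Ato10 and to 0.80 without that of Db.

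**Figure D2:**
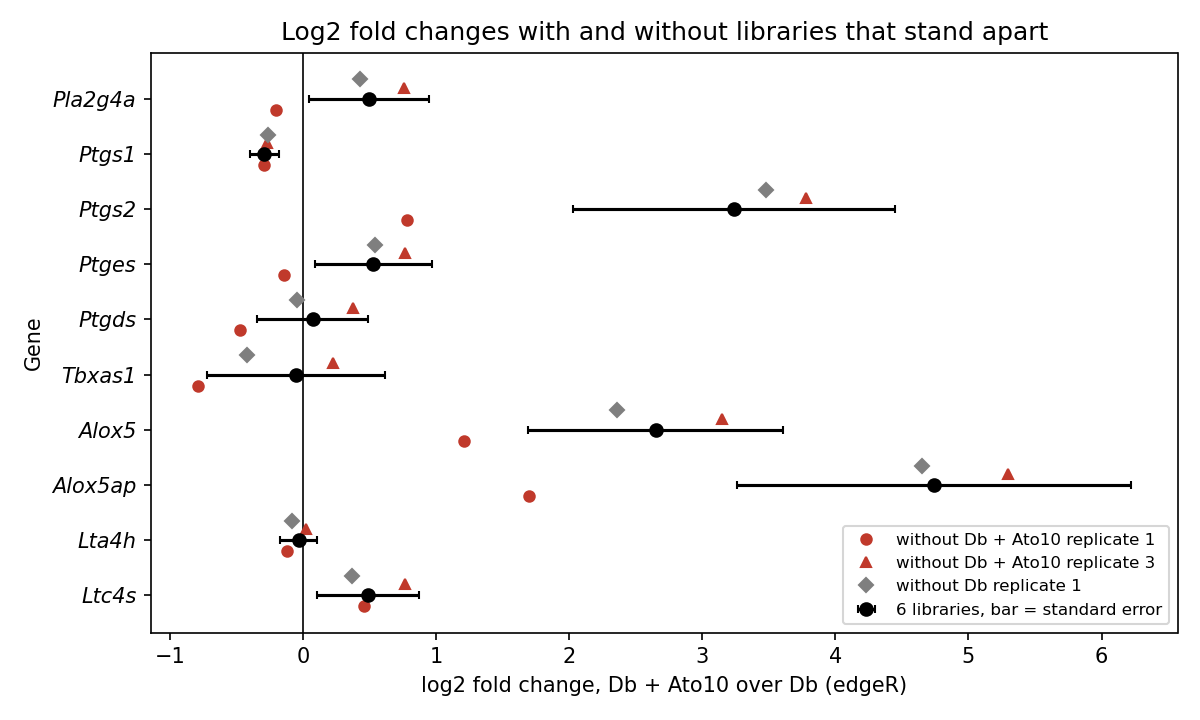
Log2 fold changes of the 10 genes, Db + Ato10 over Db, from edgeR. Black points with bars are the estimates and standard errors from all 6 libraries, and the other symbols are estimates without Db + Ato10 replicate 1 (red circles), Db + Ato10 replicate 3 (red triangles) or Db replicate 1 (grey diamonds). Without Db + Ato10 replicate 1 the estimate of Alox5ap goes from 4.74 to 1.70 and that of Ptgs2 from 3.24 to 0.78, while that of Ptgs1 stays at -0.29.

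Between genes, levels were compared per gene length, as TPM. In the Db group the order of mean TPM was Ltc4s (43.6 ± 14.6, SD, n = 3), Lta4h (43.1 ± 3.35), Ptgds (34.8 ± 5.77), Ptgs1 (22.7 ± 0.544), Ptges (20.2 ± 4.4), Tbxas1 (12.8 ± 9.13), Alox5ap (8.62 ± 3.78), Pla2g4a (6.75 ± 0.768), Alox5 (0.74 ± 0.356) and Ptgs2 (0.58 ± 0.19). Neighbours in this order had overlapping Db libraries except at Ptgds over Ptgs1 and at Pla2g4a over Alox5, so the order of most neighbours was not resolved, while Ptgs1 and Ptges lay above Alox5ap and Pla2g4a in every Db library. The leukotriene branch was uneven in the Db group, with its downstream enzymes at the top and the lipoxygenase near the bottom. In the Db + Ato10 group Alox5ap had the highest mean, 206 ± 309.7 TPM (SD, n = 3), from 563, 41.4 and 12.9 TPM in replicates 1 to 3. Within these libraries it ranked 1, 2 and 6 of the 10 members, so its place by the mean rested on replicate 1. Ptgs2 and Alox5 stayed the lowest pair there, at 5.01 ± 7.0 and 4.25 ± 4.59 TPM.

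Over the 6 libraries, log2 CPM of Alox5ap followed that of Ptgs2 (Pearson r = 0.95) and Alox5 (0.94), and Ptgs2 and Alox5 had r = 0.92. Pla2g4a and Ptges had r = 0.91, and Tbxas1 and Lta4h, with a second peak in Db replicate 2, had r = 0.95. Ptgs1 had r between -0.64 and 0.10 with the other 9 members. These values are descriptions over 6 points that share libraries, and Db + Ato10 replicate 1 weighs heavily in them.

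For each member the 2 other tested genes with the most similar profile were found by Pearson r of log2 CPM over the same 6 libraries. For Alox5ap they were Ppp1r18 (0.999) and F10 (0.998), for Alox5 Arap1 (0.997) and Shkbp1 (0.995), and for Ptgs2 Ddx41 (0.996) and Cnn2 (0.995). Such likeness was common for these members, with r over 0.95 in 779 tested genes for Alox5ap, 466 for Alox5 and 324 for Ptgs2. For Pla2g4a they were Synj2 (0.998) and Tank (0.997), for Ptges Pi16 (0.997) and Sde2 (0.995), and for Ptgds Npr3 (0.997) and Mpnd (0.991). For Tbxas1 they were Cand2 (0.988) and Map3k9 (0.986), for Lta4h Tent5b (0.996) and Nfix (0.98), for Ltc4s Iglon5 (0.994) and Trim30d (0.993), and for Ptgs1 Carnmt1 (0.988) and Zpbp (0.987). Fewer genes shared the profile of these members, from 12 for Ptgds to 103 for Pla2g4a at r over 0.95.

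The sums of macrophage and neutrophil markers had the same order over the treated libraries as Alox5ap, Alox5 and Ptgs2. The 10 macrophage markers summed to 133, 241 and 181 CPM in Db replicates 1 to 3 and to 4849, 1268 and 269.8 CPM in Db + Ato10 replicates 1 to 3. All 10 were tested and had an unadjusted p under 0.05, all higher in the Db + Ato10 group, as were 11.2% of all tested genes. With edgeR 0 of them were called and with DESeq2 9, beside 5.19% of all genes called higher. Their median log2 fold change was 3.18, 2.17 without Db + Ato10 replicate 1 and 2.92 when Db replicate 1 was left out. In the last of these fits 7 of 10 kept an unadjusted p under 0.05, beside 7.68% of all tested genes. Their most abundant gene, Lyz2, was counted at 20.9, 57.9 and 41.4 CPM in the Db libraries and at 2663, 538 and 65.3 CPM in the Db + Ato10 libraries. The 8 neutrophil markers summed to 5.88, 9.62 and 5.41 CPM and to 9658, 99.1 and 10.7 CPM in the same order, with 3 tested, all 3 higher at an unadjusted p under 0.05, but 0 when Db replicate 1 was left out. Their median log2 fold change was 9.18, and 8.99 when Db replicate 1 was left out. Over those tested without Db + Ato10 replicate 1 it was 3.0. Their most abundant gene was S100a9, at between 2.07 and 4.59 CPM in the Db libraries and at 5285, 42.8 and 5.36 CPM in the Db + Ato10 libraries, while Ly6g, Mpo, Elane and Ngp were at 0 in at least 1 library. This order was not particular to macrophages and neutrophils. The sums of platelet, T cell, B cell, interstitial fibroblast and urothelium and squamous epithelium markers, given below, had it too. In RNA of whole tissue, more cells of a type and more RNA per cell cannot be told apart. The part of leukocytes in the values of the members was not tested.

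Platelet markers, of interest for Tbxas1 and Ptgs1, summed to 3.73, 4.94 and 8.4 CPM in Db replicates 1 to 3 and to 98.5, 18.8 and 8.74 CPM in Db + Ato10 replicates 1 to 3, with Pf4, which macrophages can also express, as their most abundant gene, and Gp1bb, Gp9 and Treml1 at 0 in at least 1 library. Of their 3 tested genes 1 had an unadjusted p under 0.05. Mast cell markers, of interest for Ltc4s and Ptgds, summed to between 12.1 and 21.2 CPM in all 6 libraries, but most of this sum came from Kit, which tubule cells also express. The more specific Cpa3, Mcpt4, Tpsb2 and Cma1 were too rare to be tested, with 0 to 2 counts in each Db library and 0 in Db + Ato10 replicate 3. In Db + Ato10 replicates 1 and 2 they had 12 and 6 (Cpa3), 9 and 2 (Mcpt4), 16 and 8 (Tpsb2) and 12 and 7 counts (Cma1). Ms4a2 was at 0 in Db + Ato10 replicate 2, and 0 of the 2 tested markers had an unadjusted p under 0.05 with edgeR or were called by DESeq2. The sums of T cell markers (led by Cd3g) were 1.67, 5.29 and 2.18 CPM and 17.0, 15.3 and 2.52 CPM, and those of B cell markers (led by Jchain) 1.27, 19.1 and 4.12 CPM and 315, 95.9 and 6.54 CPM. With edgeR 1 of 3 tested T cell markers and 2 of 2 tested B cell markers had an unadjusted p under 0.05, and 0 of either did when Db replicate 1 was left out. The B cell markers Ms4a1 and Pax5 were at 0 in at least 1 library. The interstitial fibroblast markers (led by Dcn) summed to 68.5, 128 and 87.6 CPM and to 1137, 439.7 and 174 CPM, and 5 of 6 had an unadjusted p under 0.05, all higher, or 3 without Db + Ato10 replicate 1 and 2 when Db replicate 1 was left out. The median log2 fold change of this list was 2.57, and 0.94 and 2.32 in these 2 fits. Beside these platelet, T cell, B cell and fibroblast counts, 11.2% of all tested genes were higher at an unadjusted p under 0.05 with all 6 libraries. Without Db + Ato10 replicate 1 it was reached, in either direction, by 12.4% of all tested genes, and without Db replicate 1 by 7.68%. Markers of urothelium and squamous epithelium summed to between 2.34 and 5.4 CPM in the Db libraries and to 166, 89.3 and 26.9 CPM in the treated libraries, and adipocyte markers (led by Cidec) to at most 0.889 CPM in the Db and 1.69 CPM in the treated libraries. The treated sums of the epithelial list were led by the basal keratin Krt5, at 0.0867 to 0.404 CPM in the Db libraries and at 74.2, 39.8 and 11.7 CPM in the treated libraries. The tested genes Pf4, Ppbp, Cd3g, Cd4, Cd8a, Cd79b, Krt5, Krt14, Krt15 and Cidec of these lists had 10 counts in fewer than 2 Db libraries. They passed the filter through the treated libraries, so their direction is no result of the test. Krt13, Krt14 and Krt15 and the adipocyte markers Adipoq, Plin1, Retn and Cfd were at 0 in at least 1 library. A list is led by the gene with the highest mean TPM over all 6 libraries, which Db + Ato10 replicate 1 alone can set. The part of these cell types in the values of the members was not tested.

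Several tubule markers were lower at an unadjusted p under 0.05 with edgeR, which called 0 of them. The 7 markers of the thick ascending limb and macula densa (led by Umod) summed to 8609, 9386 and 8744 CPM in Db replicates 1 to 3 and to 4705, 2253 and 6176 CPM in Db + Ato10 replicates 1 to 3, with 5 of 7 lower at this threshold. Of all tested genes 5.71% were lower at it. DESeq2 called 4 of the 7 lower, where it called 1.3% of all genes lower. The 8 collecting duct markers (led by Aqp2) summed to 871, 749.8 and 1119 CPM and to 703, 455 and 721 CPM, also with 5 lower. DESeq2 called 2 of these markers lower. When Db replicate 1 was left out, 2 were at an unadjusted p under 0.05, while the count of the thick ascending limb stayed at 5. Of all tested genes 7.68% were at it in that fit. The median log2 fold change of the collecting duct markers was -0.55, and -0.61 in that fit. The 8 proximal tubule markers (led by Kap) summed to 12345, 7536 and 10509 CPM and to 2266, 4870.3 and 9904 CPM. With edgeR 0 of them had an unadjusted p under 0.05, and DESeq2 called 0. Without Db + Ato10 replicate 3 there were 4 at this edgeR threshold, beside 29.9% of all tested genes. The proximal tubule sum was lowest in Db + Ato10 replicate 1, the library with the most Alox5ap. A link between this sum and Alox5ap was not tested. Podocyte markers (led by Podxl) summed to between 206 and 604 CPM and endothelial markers (led by Emcn) to between 153 and 383 CPM, each with its highest sum in Db + Ato10 replicate 1 and its lowest in replicate 2. With edgeR 0 of 6 podocyte markers and 1 of 6 endothelial markers, which was lower, had an unadjusted p under 0.05, and DESeq2 called 0 of either.

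The transcripts of the members showed which annotated forms carried these counts. The transcript table lists 27 RefSeq transcripts for the 10 genes, of which 15 passed the same filter, and edgeR called 0 of them and 0.0% of all 30175 tested transcripts. At an unadjusted p under 0.05 there were 4 of 15, beside 8.19% of all tested transcripts, namely the only listed transcripts of Ptgs2 and Alox5, the main transcript of Alox5ap and the main transcript of Ptgs1. DESeq2 called 1, the main Alox5ap transcript, NM_009663.2, with a log2 fold change of 4.82 and an adjusted p of 0.00681, beside 1.91% of transcripts called higher. Without Db + Ato10 replicate 1 the edgeR estimate of this transcript went from 4.8 to 1.72. In Ptgs1 the main transcript, NM_008969.4, took 90.5%, 97.2% and 90.0% of the gene's counts in Db replicates 1 to 3 and 69.0%, 54.8% and 94.9% in Db + Ato10 replicates 1 to 3. A predicted form, XM_006497795.2, had 16.15, 0 and 31.12 expected counts in the Db libraries and 102.93, 170.77 and 9.44 in the treated libraries. On the log2 scale the main transcript differed by -0.61 (SE 0.22, edgeR with Benjamini-Hochberg adjustment, adjusted p = 0.562). For the predicted form the estimate was 2.37 (SE 1.59, edgeR with Benjamini-Hochberg adjustment, adjusted p = 0.751). In Tbxas1 the predicted form XM_006505880.3 took between 77.3% and 93.5% of the counts in the Db libraries and 29.1%, 64.6% and 91.7% in Db + Ato10 replicates 1 to 3. Its form NM_011539.3 had 116.19 and 17.56 expected counts in Db + Ato10 replicates 1 and 2 and 0 in the other 4 libraries, and it was too rare to be tested. Shares between forms of a gene are estimates of the authors' counting and were not tested here.

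The rest of the eicosanoid pathway was followed in 8 lists with 79 genes, of which 72 were in the table and 56 were tested. Of these, Ltb4r1, Cysltr1, Fpr2 and Dpep2 had 10 counts in fewer than 2 Db libraries and passed the filter through the treated libraries, so their direction is no result of the test, and they are 4 of the higher genes counted next. With edgeR 0 of the 56 were called. At an unadjusted p under 0.05, 7 of 56 were higher (11.2% of all tested genes were) and 4 of 56 lower (5.71% of all were). Groups did not overlap for 4 of 56, Ltb4r1 and Cysltr1 among them, with every Db + Ato10 library above, beside 12% of all tested genes. For 5 of 56 every Db + Ato10 library lay below, beside 11.3%. The median log2 fold change was 0.0013, or -0.068 without Db + Ato10 replicate 1. DESeq2 called 4 higher (Ltb4r1, Ptger4, Dpep2 and Fpr2) and 1 lower (Ptger3), where it called 5.19% of all genes higher and 1.3% lower. Of these higher calls only Ptger4 lies outside the genes that the filter let in through the treated libraries. With a library left out DESeq2 called 1 pathway gene in 4 of 6 fits, 5 when Db replicate 2 was left out and 20 without Db + Ato10 replicate 3. Of all genes with an adjusted p-value it called 618 of 13534 without Db replicate 2. Without Db + Ato10 replicate 3 it called 2614 of 13515, and in the other 4 fits 195 to 372 of all genes. With edgeR 11 pathway genes had an unadjusted p under 0.05 without Db + Ato10 replicate 1, beside 12.4% of all tested genes. There were 7 when Db replicate 1 was left out, beside 7.68%, and 23 without Db + Ato10 replicate 3, beside 29.9%. In the last of these fits edgeR called Hpgds, Dpep2 and Fpr2 higher, beside 5.96% of all genes, and Dpep1 lower, beside 2.23% (Dpep1 is named after its values were seen). Dpep2 and Fpr2 passed the filter through the treated libraries, so their direction is no result of the test here either.

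**Figure D3:**
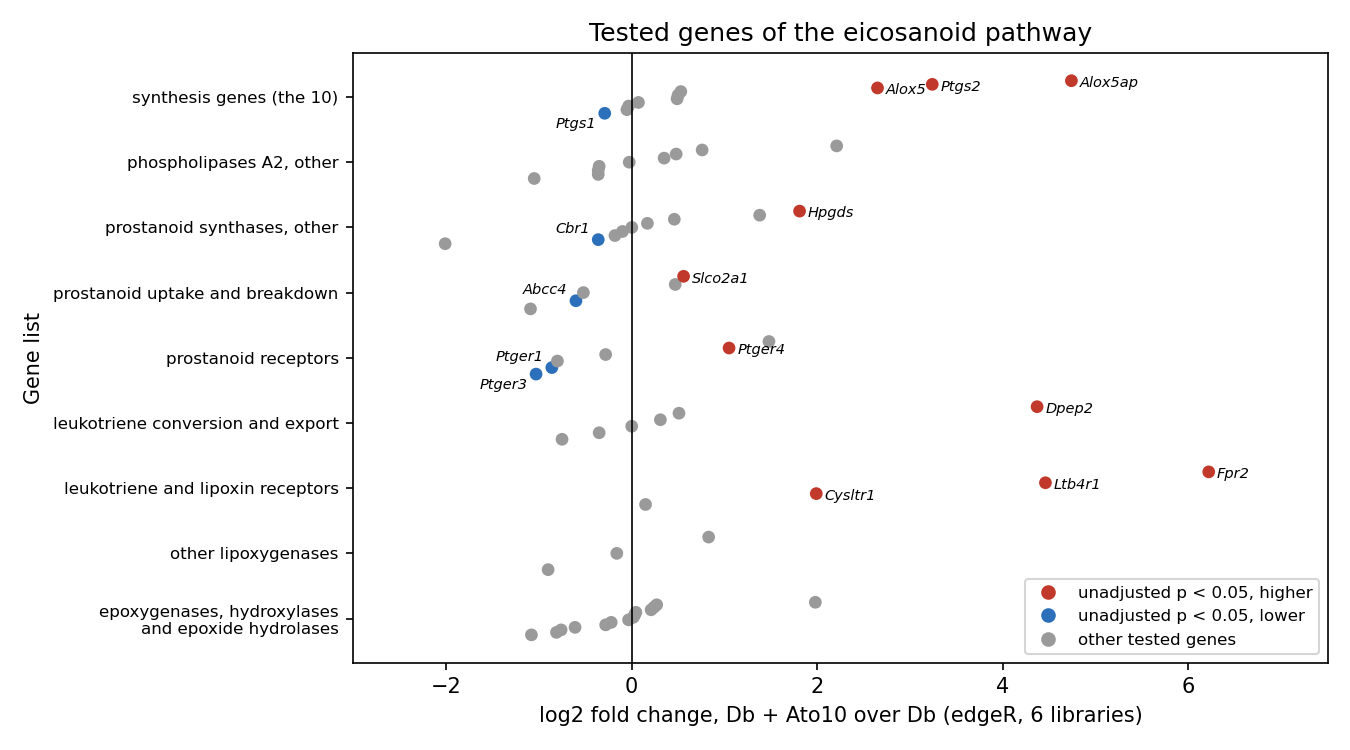
Log2 fold changes, Db + Ato10 over Db, of the tested genes of the eicosanoid pathway, in rows by list, from edgeR with all 6 libraries. Each point is a gene, red and blue mark an unadjusted p under 0.05 in each direction, and vertical spread within a row only separates points. Ptger3 lies at -1.03 and Ptger4 at 1.05. The direction of Fpr2, Ltb4r1, Cysltr1 and Dpep2 is no result of the test, since these genes passed the filter through the treated libraries.

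Of 9 listed prostanoid receptors 6 were tested, with 2 lower and 1 higher at an unadjusted p under 0.05 and a median log2 fold change of -0.54, or -0.50 without Db + Ato10 replicate 1 and -0.86 without replicate 3 of that group. Ptger3, the EP3 receptor of the thick ascending limb and collecting duct, was counted at 93.1, 80.4 and 146 CPM in Db replicates 1 to 3 and at 58.0, 42.8 and 55.4 CPM in Db + Ato10 replicates 1 to 3. Every treated library lay below every Db library, and the log2 fold change was -1.03 (standard error 0.26, edgeR with Benjamini-Hochberg adjustment, adjusted p = 0.239), -1.11 without Db + Ato10 replicate 1, -1.07 without Db + Ato10 replicate 3 and -1.11 when Db replicate 1 was left out. It was -1.2 and -0.74 when Db replicate 2 or 3 was left out, and -0.89 without Db + Ato10 replicate 2. Ptger1, the EP1 receptor, was counted at 12.5, 18.4 and 27.6 CPM and at 11.1, 9.52 and 11.6 CPM in the same order, again without overlap, with a log2 fold change of -0.86 (standard error 0.30), or -0.88 without Db + Ato10 replicate 1 and -0.52 when Db replicate 3 was left out. Its deposited counts were not whole numbers. Ptger4, the EP4 receptor, ran the other way, with 3.26, 4.42 and 2.91 CPM in the Db libraries and 8.89, 7.77 and 5.28 CPM in the treated libraries, and a log2 fold change of 1.05 (standard error 0.30), or 0.90 without Db + Ato10 replicate 1. All 3 of these receptors differed in the same direction in each fit that left out a library named above. Ptger3 and Ptger1 fell on the same side as the thick ascending limb and collecting duct markers, whose part in these values was not tested.

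Transport and breakdown of prostaglandins held 5 tested genes of 6 listed, with a median log2 fold change of -0.52, or -0.29 without Db + Ato10 replicate 1 and -0.74 without replicate 3 of that group. Slco2a1, the prostaglandin uptake carrier, was counted at 39.8, 42.6 and 51.3 CPM in Db replicates 1 to 3 and at 68.5, 73.9 and 54.6 CPM in Db + Ato10 replicates 1 to 3. Abcc4, an exporter of prostaglandins, was counted at 144, 184 and 190.2 CPM and at 97.4, 109 and 135 CPM. On the CPM scale neither pair of groups overlapped, but as TPM Slco2a1 had 22.5 in Db replicate 3 and 22.3 in Db + Ato10 replicate 3. The log2 fold changes were 0.56 (standard error 0.17) for Slco2a1 and -0.60 (standard error 0.19) for Abcc4, each with an adjusted p of 0.239 from edgeR with Benjamini-Hochberg adjustment, and 0.54 and -0.50 without Db + Ato10 replicate 1. Ptgr2, a reductase of prostaglandin breakdown and the most abundant gene of this list by TPM, had 173, 150.3 and 173 CPM and 76.3, 117 and 152 CPM, with groups that overlapped.

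Among the other prostanoid synthases 9 of 9 genes were tested, with a median log2 fold change of 0.0018, or -0.07 without Db + Ato10 replicate 1. Hpgds, the hematopoietic prostaglandin D synthase, was counted at 0.874, 2.17 and 1.13 CPM in Db replicates 1 to 3 and at 4.74, 8.64 and 1.26 CPM in Db + Ato10 replicates 1 to 3, with replicate 3 inside the Db range (log2 fold change 1.81, standard error 0.72, or 1.85 without Db + Ato10 replicate 1 and 1.14 when replicate 2 of that group was left out). Like Ltc4s it was highest in Db + Ato10 replicate 2, and it differed in this from Ptgds, which makes the same product. Cbr1, a carbonyl reductase that acts on prostaglandin E and the most abundant gene of the list by TPM, had 210.1, 207 and 213 CPM and 148, 185 and 159 CPM, without overlap (log2 fold change -0.36, standard error 0.14, or -0.28 without Db + Ato10 replicate 1).

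On the leukotriene side 4 of 5 listed receptors of leukotrienes and lipoxins were tested. The 3 receptor genes with an unadjusted p under 0.05 were low in every Db library. They and Dpep2 had 10 counts in fewer than 2 Db libraries and passed the filter through the treated libraries. Their direction and any lack of overlap are therefore no result of the test. Ltb4r1, the high-affinity leukotriene B receptor of leukocytes, was counted at 0.318, 0.607 and 0.404 CPM in Db replicates 1 to 3 and at 25.3, 3.11 and 1.18 CPM in Db + Ato10 replicates 1 to 3. Fpr2, a receptor that also binds lipoxin A, was counted at 0.159, 1.21 and 0.565 CPM and at 137, 6.48 and 0.709 CPM, and Cysltr1, a cysteinyl leukotriene receptor, at 0.238, 0.78 and 0.969 CPM and at 3.43, 3.24 and 1.26 CPM. Ltb4r1 and Cysltr1 did not overlap between groups, and Fpr2 did in Db + Ato10 replicate 3. Dpep2, a dipeptidase that converts leukotriene D to leukotriene E, had 0.238, 1.3 and 0.242 CPM and 28.5, 7.36 and 1.02 CPM, overlapping at Db replicate 2. The log2 fold changes of Ltb4r1, Fpr2, Cysltr1 and Dpep2 were 4.46, 6.22, 1.99 and 4.37, with standard errors of 1.26, 2.0, 0.61 and 1.31 and an adjusted p of 0.239 for each from edgeR with Benjamini-Hochberg adjustment. Without Db + Ato10 replicate 1, Ltb4r1 and Fpr2 no longer passed the filter, and Cysltr1 and Dpep2 had log2 fold changes of 1.78 and 2.85. Of 8 genes of leukotriene conversion and export 6 were tested, with a median log2 fold change of 0.15 that turned to -0.20 without Db + Ato10 replicate 1. Mgst3, the most abundant of them by TPM, had 169, 209 and 215 CPM and 178, 222 and 194 CPM.

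The remaining lists had 0 genes at an unadjusted p under 0.05 with edgeR in all 6 libraries and 0 called by DESeq2. Of 20 other phospholipases A2, 9 were tested, with a median log2 fold change of -0.026 (0.071 without Db + Ato10 replicate 1), and the most abundant by mean TPM over all 6 libraries was Pla2g7, which degrades platelet-activating factor. Pla2g12a, named after its values were seen, exceeded it in every Db library, at 46.9, 60.1 and 50.3 TPM against 17.5, 44.7 and 30.1 TPM in Db replicates 1 to 3. Pla2g7 was counted at 17.8, 45.8 and 29.6 CPM in Db replicates 1 to 3 and at 349, 62.1 and 20.2 CPM in Db + Ato10 replicates 1 to 3, the same treated order as Alox5ap, with groups that overlapped and a log2 fold change of 2.21 (standard error 1.0), or 0.42 without Db + Ato10 replicate 1. Of 6 other lipoxygenases 3 were tested, led by Alox12 at between 15.7 and 25.6 CPM over the 6 libraries, and their median was -0.16 (-0.22 without Db + Ato10 replicate 1 and -0.069 when Db replicate 1 was left out). Of 16 epoxygenases, hydroxylases and epoxide hydrolases, the route that proximal tubules are known for, 14 were tested, with a median of -0.0075 (0.23 without Db + Ato10 replicate 1 and -0.23 without replicate 3 of that group). Their sums were 4969, 6369 and 4615 CPM in the Db libraries and 2108, 6009 and 6318 CPM in the treated libraries, and their most abundant gene, Cyp4a10, had 1036, 1869 and 987 CPM and 782, 1549 and 1687 CPM. The Cyp2j and Cyp4a families hold near-identical copies, between which counts may be split. Db + Ato10 replicate 1, the library with the most Alox5ap, had the lowest sum of this route, and replicates 2 and 3 lay inside the Db range. A link between this sum and Alox5ap was not tested.

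Promoter windows were read for members whose profiles ran together, Ptgs2 and Alox5, to show the sequence in front of these genes. RefSeq windows of GRCm38.p6, from 250 bases before to 50 bases after a start, were found for 9 of the 10 members (all but Alox5ap), 10 windows in all, and 7 short motifs, chosen after the expression values had been seen, were searched on both strands. The GC box GGGCGG was present in 3 of 10 member windows and in 35.7% of all 32851 windows, the E-box CACGTG in 1 of 10 and 7.15%, the core of the cyclic AMP response element TGACG in 1 of 10 and 20.8%, and GAGGAA, the core of PU.1 sites, in 7 of 10 and 28.3%. The TATA box TATAAA was present in 2 of 10 and 13.6%, the AP-1 site TGANTCA in 2 of 10 and 7.81%, and the GATA core AGATAA in 0 of 10 and 11.2%. The Ptgs2 window is chr1:150099781-150100080 on the plus strand and the Alox5 window chr6:116461129-116461428 on the minus strand, both written 5′ to 3′ in the direction of the gene. Capitals mark the matches, and in Ptgs2 the match to TGACG, on the opposite strand, overlaps the E-box. Both windows hold GAGGAA and GGGCGG. A match is a run of letters and was not tested as a binding site.
Ptgs2: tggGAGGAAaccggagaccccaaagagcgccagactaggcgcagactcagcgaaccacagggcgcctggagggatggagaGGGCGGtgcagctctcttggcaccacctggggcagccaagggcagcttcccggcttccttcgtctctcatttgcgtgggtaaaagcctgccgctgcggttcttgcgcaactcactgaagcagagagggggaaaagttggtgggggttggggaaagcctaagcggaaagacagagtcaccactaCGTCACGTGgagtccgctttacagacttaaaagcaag
Alox5: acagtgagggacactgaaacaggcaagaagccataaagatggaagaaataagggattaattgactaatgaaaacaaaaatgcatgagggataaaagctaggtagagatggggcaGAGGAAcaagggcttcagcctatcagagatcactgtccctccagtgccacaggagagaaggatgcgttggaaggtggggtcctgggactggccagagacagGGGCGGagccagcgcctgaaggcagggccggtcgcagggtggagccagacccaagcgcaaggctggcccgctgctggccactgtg

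The separation of the groups rested on few libraries, and 3 libraries a group, of which Db + Ato10 replicate 1 set most of the higher values, limit each single-gene statement. Whether the missing Y-linked counts of Db replicate 1 reflect another animal than labelled was not tested.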

How the data were processed

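Poly(A)-selected or rRNA-depleted total RNA of 6 mouse kidneys (3 Db, 3 Db + Ato10) was sequenced on a BGISEQ-500 instrument. Per the labels, the submitters' processing notes name HISAT, Bowtie2 2.2.5 and the build mm9, and the counting tool is not given in the sources used here. The authors deposited, for each library, expected counts per gene and per RefSeq transcript, which are estimated reads without normalization (91.3% of gene values lay within 1e-09 of a whole number). Also from the authors are TPM, scaled to gene length and to an equal sum in every library, and FPKM, scaled to gene length and library size. The 6 columns of FPKM per transcript were not used here. No 2 libraries were identical.

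Here, expected counts were rounded, and genes or transcripts passed the filter with 10 or more counts in 3 or more libraries (13679 of 17684 genes, 30175 of 54723 transcripts). Db + Ato10 was compared with Db in edgeR 4.0.16 (TMM, quasi-likelihood F test) with Benjamini-Hochberg adjustment over all tested genes. A gene was called at an adjusted p under 0.05 and a fold change over 1.5. Standard errors are the absolute log2 fold change over the square root of F. Principal components and correlations used log2 CPM with a prior count of 2. The code was tested on simulated data. R 4.3.3, DESeq2 1.42.0, limma 3.58.1, Python 3.11.15, pandas 2.3.3 and matplotlib 3.10.9 were used. Alternatives were DESeq2, limma-voom, upper-quartile factors, other filters, a robust prior, a replicate block, limma on log2(TPM + 1) or log2(FPKM + 1), and each library left out. DESeq2 with each library left out was chosen after seeing the data.

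The members, 8 pathway lists (79 genes) and 14 lists of cell markers (97 genes, 95 in the table) were chosen with earlier results of these data known. Named were all members, pathway genes with an unadjusted p under 0.05 (at most 12 in each direction), the most abundant gene of each list by mean TPM, the 2 tested genes most like each member, and the Y-linked genes. Any other gene was named with its values in view.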

Additional observations from a re-analysis of the deposited data

How the results depend on the processing

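Of the members, 0 were called with edgeR, and 2 with DESeq2. With a library left out edgeR called 0 to 1, and DESeq2, in fits chosen after seeing the data, 0 to 3 (1 when Db replicate 2 was left out, 2 for Db + Ato10 replicate 2, 3 for Db + Ato10 replicate 3). Members at an unadjusted p under 0.05 numbered 4 in the main fit, 4 with DESeq2, 1 with limma-voom, 2 with at least 10 counts in every library, 0 on log2(TPM + 1), 0 on log2(FPKM + 1), 0 to 4 with a library left out, and 1 with DESeq2 without Db + Ato10 replicate 1. Of all tested genes 16.9% reached it in the main fit, 19.2% with DESeq2, 13.3% with limma-voom, 16.1% with the stricter filter, 15.9% on log2(TPM + 1), 14.0% on log2(FPKM + 1), 7.68% to 29.9% with a library left out, and 12.8% with DESeq2 without Db + Ato10 replicate 1. Pathway genes called numbered 0 with edgeR, 5 with DESeq2, 0 to 4 with a library left out, and with DESeq2 1, 5 and 1 when Db replicates 1 to 3 were left out in turn and 1, 1 and 20 for Db + Ato10 replicates 1 to 3. Pathway genes at an unadjusted p under 0.05 numbered 11 in the main fit, 17 with DESeq2, 7 with limma-voom and 7 to 23 with a library left out (23 with DESeq2 without Db + Ato10 replicate 3). Of all genes 0 were called with edgeR, 884 with DESeq2 and 0 to 1106 with a library left out, and with DESeq2 195, 618 and 221 when Db replicates 1 to 3 were left out in turn and 313, 372 and 2614 for Db + Ato10 replicates 1 to 3. Of the member transcripts 0 were called with edgeR and 1 with DESeq2. Fits with a library left out have 2 libraries in that group. The log2 fold changes of Ptgs1, Ptgs2, Alox5, Alox5ap and Ltc4s kept their sign in every fit that tested them (Alox5 was not tested with at least 10 counts in every library). Their size depended on the fit: with limma-voom, on log2(TPM + 1) and on log2(FPKM + 1) it was 3.17, 2.92 and 2.94 for Alox5ap (4.74 in the main fit), 2.1, 1.25 and 1.12 for Ptgs2 (3.24) and 2.07, 1.23 and 1.09 for Alox5 (2.65). Those of the other members did not. Pla2g4a turned to -0.2 and Ptges to -0.14 without Db + Ato10 replicate 1, with edgeR and with DESeq2. Ptgds turned to -0.035 with limma-voom, -0.15 on log2(TPM + 1), -0.044 on log2(FPKM + 1), -0.043 (DESeq2 -0.047) without Db replicate 1 and -0.47 (DESeq2 -0.47) without Db + Ato10 replicate 1. Tbxas1 turned to 0.044 with limma-voom, and to 0.66 (DESeq2 0.67), 0.24 (DESeq2 0.24) and 0.23 (DESeq2 0.24) when Db replicate 2, Db + Ato10 replicate 2 or Db + Ato10 replicate 3 was left out. Lta4h turned to 0.019 (DESeq2 0.024), 0.032 (DESeq2 0.037) and 0.021 (DESeq2 0.029) in the same order. With a library left out, edgeR gave -0.2 to 0.78 for Pla2g4a, -0.14 to 0.81 for Ptges, -0.47 to 0.38 for Ptgds, -0.79 to 0.66 for Tbxas1, -0.12 to 0.032 for Lta4h and 0.2 to 0.8 for Ltc4s. The cause was not tested. With the replicate number as a block (replicate block), 0 genes were called and 0 members had an unadjusted p under 0.05, which 13.6% of all tested genes had. Ptgds turned to -0.069, and Alox5ap, Ptgs2 and Alox5 were at 2.94, 2.15 and 2.01. Deviations of same-numbered libraries correlated at -0.151, 0.0613 and 0.208, and those of libraries with different numbers at -0.374 to 0.311. With 3 libraries a group, these values cannot decide whether the numbers pair the libraries. At these depths genes with few counts, such as Alox5, Ptgs2 and Ltb4r1 in the Db libraries, are the least certain.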
